A study of Mus musculus with 8 samples.

Results

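The comparison described here set the lamina associated domains (LADs) of adipocytes against those of adipocytes depleted of both Tmem120a and Tmem120b. It drew on 4 of the 8 libraries of the series, a Dam and a LaminB1-Dam library from each of the 2 conditions. The cells were 3T3-L1, an established mouse fibroblast line that turns into fat cells in culture. By their labels, control adipocytes carried a non-target shRNA and knockdown adipocytes carried Tmem120a/b shRNA, and both were taken at day 9 of differentiation. Both received lentivirus encoding Dam or LaminB1-Dam on day 6, for 36 h, so all libraries share the viral transduction and an shRNA. The 2542 adipocyte LADs were read against the 6971 knockdown LADs, and the members followed in detail were the 350 adipocyte LADs of at least 1 Mb, called long LADs below. They made up 13.8% of the adipocyte LADs and held 66.6% of their length, 797.6 Mb of 1197.9 Mb, with a median length of 1.82 Mb.

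LADs are stretches of chromatin that lie against the nuclear lamina, the filament meshwork under the inner nuclear membrane. They are mostly gene poor, late replicating and transcriptionally quiet, and genes that leave or join them during differentiation often become easier or harder to activate. Tmem120a and its paralog Tmem120b are multi-spanning membrane proteins. The study places Tmem120a in the nuclear envelope and in the endoplasmic reticulum. It is highly expressed in fat and is induced during adipogenesis. In DamID a bacterial adenine methylase (Dam) fused to LaminB1 methylates GATC sites close to the lamina, DpnI cuts the methylated sites, and free Dam corrects for accessibility.

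Each condition gave 1 list of LAD positions from 1 pair of libraries, with no replicate. No difference could therefore be set against a spread between cultures, and no test of the conditions was made. The lists hold positions without score, ratio or read number, so the depth behind each LAD is unknown. "Lost" means here that DNA lay in an adipocyte LAD and in no knockdown LAD, and "gained" means the opposite. Neither word describes the strength of contact with the lamina. The lists also hold no RNA, so the depth of the knockdown and the degree of differentiation could not be checked in them. Coordinates are of mm9, with genes from the GENCODE vM1 annotation of the same assembly.

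LAD borders were nearly all placed at the GATC sites that Dam methylates. In the adipocyte list 96.5% of borders and in the knockdown list 98.8% of borders fell at such a site of the reference genome. The borders of the longest lost stretch and of a short lost stretch that held Mir206 and Mir133b are printed here because they mark the upper end and the middle of the range of lost stretches. Each line gives 64 bases of the plus strand of mm9 with the border GATC in capitals.
Left border of the longest lost stretch, chr17:59753727-59753790: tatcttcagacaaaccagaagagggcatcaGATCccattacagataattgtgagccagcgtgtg
Right border of the longest lost stretch, chr17:61576676-61576739: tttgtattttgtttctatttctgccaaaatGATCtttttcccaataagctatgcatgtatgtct
Left border of the stretch with Mir206, chr1:20656341-20656404: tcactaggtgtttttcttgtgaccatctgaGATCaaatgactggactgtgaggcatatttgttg
Right border of the stretch with Mir206, chr1:20676940-20677003: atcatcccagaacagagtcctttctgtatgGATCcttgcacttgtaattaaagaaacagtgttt

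The first question was how the long adipocyte LADs appeared after depletion of both proteins. Of the 350 long LADs, 331 (94.6%, 95% Wilson interval 91.7 to 96.5) were broken, which means that at least 2 knockdown LADs overlapped them. Over adipocyte LADs of every length the share was 36%. This interval covers counting error only, treats neighbouring LADs as independent and holds no error between cultures. Closing gaps of under 50 kb in both lists lowered the share to 50.1%, and closing gaps of under 20 kb lowered it to 79.7%.

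The long LADs contained 2396 pieces in the knockdown list, 3.00 per Mb. A long LAD was met by a median of 5 and at most 36 knockdown LADs. The number was 1 for 19 of them, 2 for 41, 5 or more for 207, 10 or more for 72 and 20 or more for 16. The pieces were short, with a median of 125.4 kb, and 1041 of them (43.4%) were under 100 kb. Only 153 pieces reached 1 Mb, and these held 32.6% of the length kept. In 214 of the 350 long LADs (61.1%) no piece of at least 1 Mb was left, and in 207 the largest piece covered under 50% of the domain. Around the bound of 1 Mb, the 3 shortest long LADs (1005.3, 1005.4 and 1007.8 kb) were met by 6, 3 and 2 knockdown LADs, and the 3 LADs just below it (998.8, 987.3 and 987.3 kb) by 7, 5 and 1. At the other end, 16 long LADs were met by a single knockdown LAD over at least 95% of their length.

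Breaking up was not the same as detachment over the whole length. The knockdown list still covered 703.3 Mb of the long LADs (88.2%) and left out 94.3 Mb (11.8%). The median long LAD lost 7.01% of its length, with quartiles of 3.52% and 14.2%. There were 128 long LADs that lost under 5%, 50 that lost at least 20% and 13 that lost at least 50%, and none was lacking altogether. With LADs under 100 kb set aside in both lists, the loss became 18.0%, since short knockdown pieces then no longer counted as kept.

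**Figure D1:**
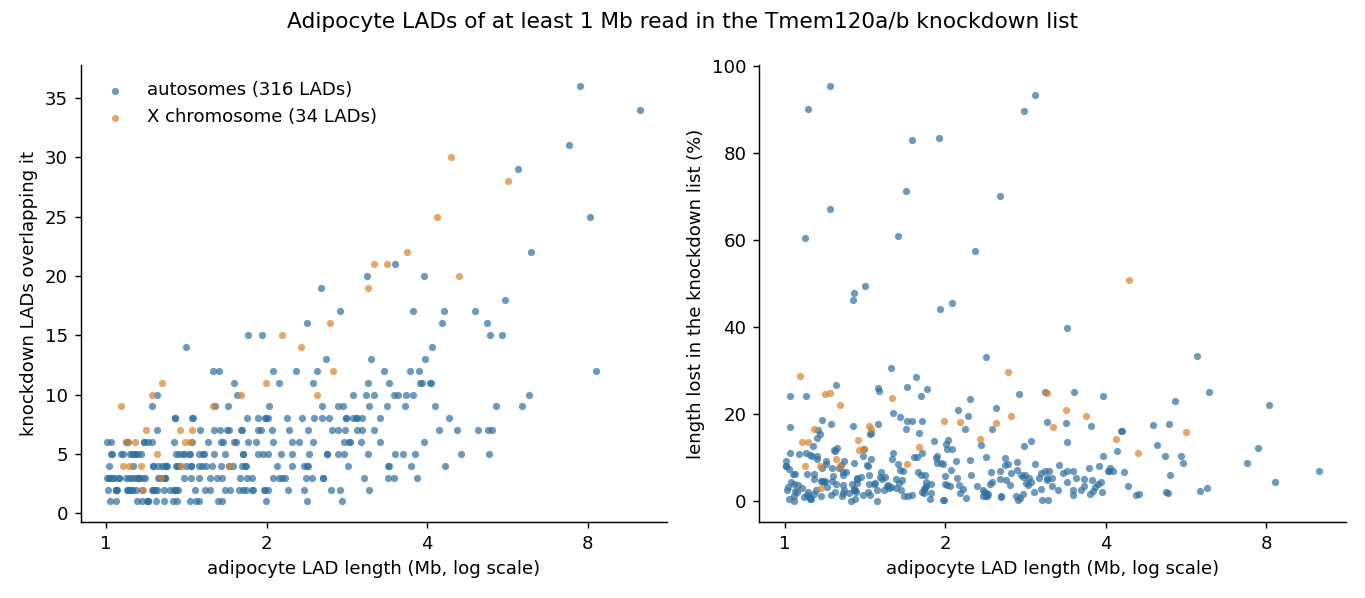
Number of knockdown LADs that overlap each long adipocyte LAD (left) and the percentage of its length lost (right), both against its length in Mb on a log scale, with 1 point per LAD for 316 autosomal and 34 X-chromosomal LADs. The number of pieces grew with length up to 36, while the 13 LADs that lost at least 50% of their length were spread between 1.09 and 4.43 Mb.

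The pattern of breaking and thinning differed between size classes. Among adipocyte LADs of 1 to 2 Mb 91.4% were broken, among those of 2 to 4 Mb 98.3%, and all 34 of at least 4 Mb were. Their losses were nonetheless close, at 12.3%, 11.3% and 11.97% of the length. Small adipocyte LADs were seldom broken. No knockdown LAD was shorter than 15 kb and no gap shorter than 4 kb, and whether this limited breaking was not tested. Adipocyte LADs of 15 to 30 kb were broken in 1.19% of cases, were lacking from the knockdown list in 45.1% and lost 54.4% of their length. Those of 300 kb to 1 Mb were broken in 71.8% and lacking in 1.10%. Over all lengths 462 of 2542 adipocyte LADs (18.2%) were lacking, all of them under 1 Mb.

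The same reading in the opposite direction gave other values. The knockdown list held 163 LADs of at least 1 Mb, and 23 of these (14.1%) were broken in the adipocyte list, with 0.514% of their length outside adipocyte LADs. Of the 163, 110 lay wholly inside 1 adipocyte LAD. The long adipocyte LADs were also read in the other lists, which share the adipocyte list as the reference and are not independent of the values above. In the Tmem120a knockdown list 306 of the 350 (87.4%) were broken, with a median of 3 pieces and 7.27% lost. In the preadipocyte list 225 (64.3%) were broken, with a median of 2 pieces and 7.09% lost. Read in reverse, 17.0% of the long LADs of the Tmem120a knockdown list and 21.1% of those of the preadipocyte list were broken in the adipocyte list.

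The lost DNA lay mostly in gaps between pieces rather than at the ends of the domains. There were 2046 gaps wholly inside long LADs, with 77.5 Mb or 82.2% of the length lost. Their median was 19.9 kb and the longest was 1822.9 kb. Gaps under 20 kb were the most frequent, 1024 in number, and held 13.0% of the gap length. The 139 gaps of at least 100 kb held 39.0% of it, 30.2 Mb.

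The borders themselves also shifted, in both directions. Of the 700 borders of long LADs, 25 (3.57%) were at the same position in both lists and 176 (25.1%) were within 10 kb of it. The border moved into the domain at 377 (53.9%), by a median of 25.7 kb. It moved outward at 298 (42.6%), by a median of 26.2 kb up to the end of the knockdown LAD. The inward shifts removed 16.8 Mb, the longest of them 514.5 kb. Lost DNA was thus more frequent near a border. Within 50 kb of a border 35.1% of the DNA was lost, at 50 to 100 kb 18.7%, and at 300 to 500 kb 10.0%. The outermost 10% at each end of the domains lost 18.8% and the middle 20% lost 8.29%.

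**Figure D2:**
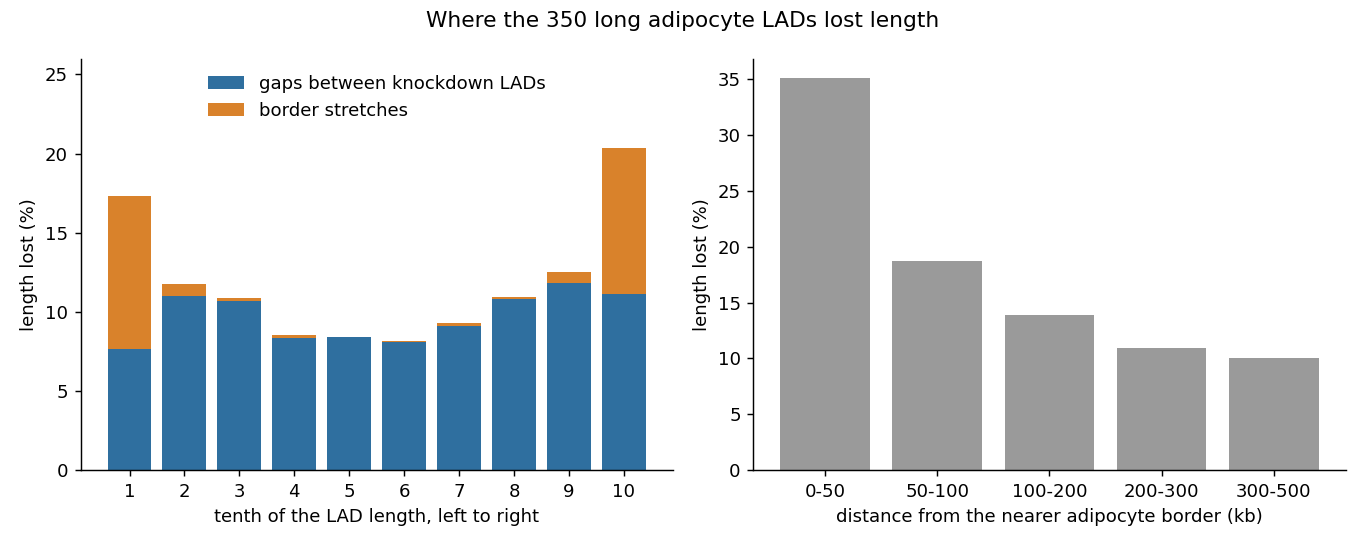
Percentage of the length of the 350 long adipocyte LADs that was lost, in 10 equal bins of the LAD from left to right (left, split into gaps between knockdown LADs and border stretches) and by distance from the nearer border in kb (right). The loss was 35.1% in the first 50 kb and 10.0% at 300 to 500 kb, and gaps between knockdown LADs were found in every bin.

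Gaps of different lengths differed in how they read in the other lists, which were again compared through the shared adipocyte list. A gap was called open in another list where under 50% of it lay in that list's LADs. Of the 2046 gaps, 1566 (76.5%) were open in neither the Tmem120a knockdown nor the preadipocyte list. For gaps under 20 kb this share was 86.5%, and for gaps of at least 100 kb it was 33.1%. Of the 139 longest gaps 41.7% were open after Tmem120a knockdown alone and 54.7% in preadipocytes. By length, 35.0% of the DNA lost from long LADs lay outside Tmem120a knockdown LADs, against 3.54% of the DNA kept. For preadipocyte LADs the values were 37.4% and 3.02%.

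Protein-coding gene starts numbered 3.02 per Mb in the kept part of long LADs and 2.38 per Mb in the gaps inside them, against 12.6 per Mb outside both lists. By gap length the density was 2.29 per Mb under 20 kb, 3.06 per Mb at 20 to 100 kb and 1.56 per Mb from 100 kb, and the lost border stretches had 3.09 per Mb. The lower density of the gaps was therefore that of the shortest and the longest ones. Read within each of the 331 domains with a gap, the density of gene starts was lower in the gaps than in the kept pieces in 205, higher in 98 and 0 in both in 28. GC content was 38.6% in the kept part and 38.3% in the gaps. Within domains it was higher in the gaps in 209 of 331, by a median of 0.48 percentage points. The density of GATC sites, which sets how finely DamID can resolve a border, was 2.58 per kb in both kept DNA and gaps together. It was 2.77 per kb in gaps under 20 kb, which held a median of 23 sites, and 2.47 per kb in gaps of at least 100 kb, and within domains it was higher in the gaps in 188 and lower in 143. The 20 long LADs without any protein-coding gene lost 26.2% of their length and the 330 with one lost 11.2%. Without the 13 domains that lost at least 50%, of which 2 held no gene, these values were 16.7% and 9.43%. The GC-poorest group of 116 domains lost 15.3% and the GC-richest 117 lost 8.04%.

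Chromosomes differed in how finely their long LADs were cut. The 34 long LADs of the X chromosome held 5.35 pieces per Mb and lost 18.9% of their length, against 2.77 pieces per Mb and 11.1% on the autosomes together. The autosomes with the largest losses were chromosome 10 with 22.5% and chromosome 4 with 21.6%, though their domains were not cut as finely as those of X. In each of the 2, 3 domains had lost at least 50% of their length. Without such domains chromosome 10 lost 12.7% and chromosome 4 lost 10.7%, below the 15.9% of chromosome 12 and the 16.8% of X. Chromosomes 6 and 11 lost least, 4.77% and 4.81%. Leaving out the X chromosome changed the share of broken long LADs to 94.0%.

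**Figure D3:**
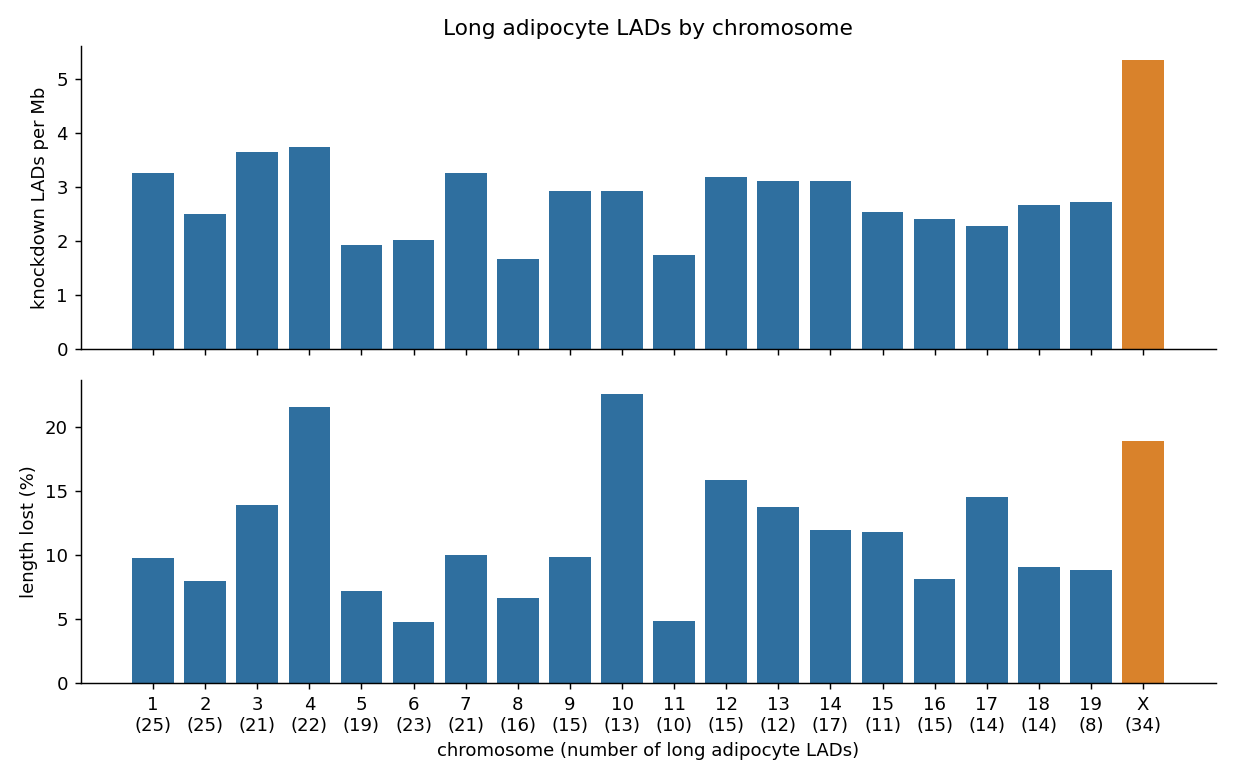
Knockdown LADs per Mb of long adipocyte LAD (top) and percentage of the length of long adipocyte LADs lost (bottom) by chromosome, with the number of long adipocyte LADs under each name and X in orange. The X chromosome had the most pieces per Mb (5.35) and chromosomes 10 and 4 the largest losses (22.5% and 21.6%).

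The 5 longest adipocyte LADs were all cut into many pieces. The longest, chr1:110146368-120177535, held the cadherin genes Cdh7 and Cdh19 together with Cntnap5a, a neurexin-family adhesion gene, and Dsel. It was met by 34 knockdown LADs, lost 6.92% of its 10.0 Mb and kept a largest piece of 1568.5 kb. The domain at chr14:106779651-115066454, with the synaptic adhesion genes Slitrk1, Slitrk5 and Slitrk6, was met by 12 knockdown LADs and lost 4.53%. These domains were cut without losing much length. The domain at chr15:17095609-25178605, with Cdh10, Cdh12 and Cdh18, was met by 25 and lost 22.1%, much of it in its right part. That at chr3:41575044-49300545, with Pcdh10, had the most pieces of all long LADs, 36, and lost 12.4%. That at chr1:100089679-107453345, with Cdh20 and Cntnap5b, was met by 31 and lost 8.83%. Both of the next most fragmented domains lost far more. One was chrX:83129507-87558206, with Il1rapl1 and the orphan nuclear receptor gene Nr0b1, which was met by 30 knockdown LADs, lost 50.8% and kept no piece longer than 151.3 kb. The other was chr14:87926985-93845037, with Pcdh20 and an end of Pcdh9, which was met by 29 and lost 33.4%.

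The long LADs that lost the largest share of their length survived only as small islands. The domain chr10:47602325-48819297, which ends at the edge of the kainate receptor gene Grik2, lost 95.4%, and its pieces were 21.1 and 35.4 kb long. The domain chr17:59166825-62117794 held no protein-coding gene, lost 93.2% and kept 7 pieces of 16.6 to 45.1 kb. It contained the longest lost stretch, chr17:59753760-61576708, whose border sequences are given above. In the adipocyte list the whole of this region on chromosome 17 was a LAD, and in the knockdown list little but isolated islands remained. The domain chr10:45701386-46809733, also without a gene, lost 89.9%. The domain chr4:28694386-31499701 lost 89.6%, and its only protein-coding gene was Epha7, an ephrin receptor used in axon guidance. The domain chr4:91032153-92980244, with Izumo3 and an end of the RNA-binding protein gene Elavl2, lost 83.5%. All 5 were also thinned in the other lists. In the list of Tmem120a knockdown alone they lost between 50.6% and 80.5%, and in preadipocytes between 51.8% and 92.3%.

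Some long LADs stayed in 1 piece. The longest of these was chr8:98454773-101217999, which lost 0.860% and whose knockdown LAD ran on past its right border into the next adipocyte LAD. The next was chr9:80328171-82709135, with the serotonin receptor gene Htr1b, which lost 1.32%. The following one, chr2:110066606-112061931, held 45 protein-coding genes, most of them olfactory receptors, and lost 4.03%.

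**Figure D4:**
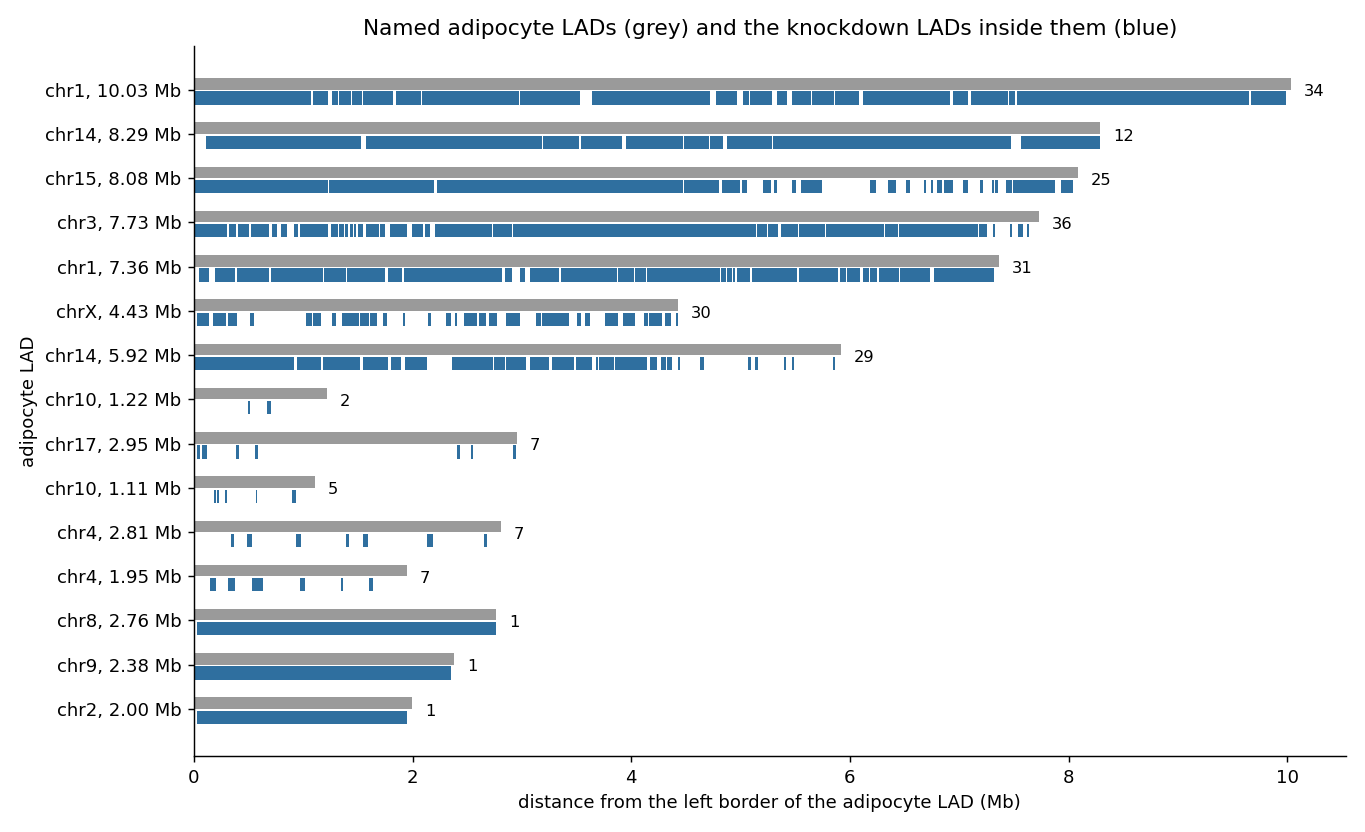
The 15 adipocyte LADs named in the text (grey), drawn to scale from their left border in Mb, with the knockdown LADs inside each (blue) and their number at the right. The upper 7 were cut into 12 to 36 pieces, the next 5 kept only 2 to 7 small pieces and the lowest 3 were covered by 1 knockdown LAD.

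Gene positions were read next. A protein-coding gene was placed in the LADs of a list where at least 50% of its body lay in them. Of 4771 genes in adipocyte LADs, 545 (11.4%) were not in knockdown LADs and are called lost, and of 17596 genes outside, 1186 (6.74%) were gained. A gene counted as gained by any overlap in place of 50% would give 1869. Chemoreceptor genes made up a large part of the genes in long LADs and set part of the count there. Of the 2273 genes wholly inside them 177 (7.79%) were lost, against 368 of 2498 (14.7%) for the remaining genes in adipocyte LADs. Without olfactory and vomeronasal receptor genes, of which 17 of 843 (2.02%) inside long LADs were lost, the counts were 160 of 1430 (11.2%) and 333 of 2026 (16.4%). On the X chromosome 30 of 150 genes wholly inside long LADs were lost. Of the 2273, 1919 lay wholly in a knockdown LAD, 230 lay partly in one and 124 had no overlap. Of the 545 lost genes 311 went from 100% to 0%, and of the 1186 gained genes 607 went from 0% to 100%. Partial cover by knockdown LADs was more frequent among long genes. A lost gene can also lie partly in knockdown LADs, so the 2 classes overlap, and genes only partly in adipocyte LADs were not set apart. Of genes over 200 kb in adipocyte LADs 68.9% lay partly in knockdown LADs and 11.9% were lost, whereas of genes under 10 kb 1.60% lay partly in them and 9.31% were lost.

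Some of the lost genes in long LADs had long bodies, of which only fragments remained in a LAD. These and the genes of the next paragraph were chosen after their values were seen, apart from members of the lists described further on. Il1rapl1, which encodes a synaptic adhesion protein, spans 1374.8 kb and went from 100% in the adipocyte list to 39.4% in 9 knockdown LADs. Cadm2, a cell adhesion gene of 965.5 kb, went from 100% to 48.5% in 10 knockdown LADs. Cdh18 went from 100% to 30.2% in 3. In other cases a single small piece remained. Kcnj3, which encodes an inwardly rectifying potassium channel subunit, went from 100% to 13.8%, with 1 piece of 22.4 kb. Mmp16, a membrane-type matrix metalloproteinase gene, went from 100% to 7.90%, with 1 piece of 21.0 kb. The sodium channel gene Scn9a went from 100% to 22.8%, and there a longer knockdown LAD of 272.55 kb reached 35.3 kb into the gene. In the preadipocyte list Kcnj3, Mmp16 and Scn9a were at 0%, while Il1rapl1 was at 66.2%.

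Other genes had no overlap with a knockdown LAD although they had lain wholly within a long adipocyte LAD. Epha7, at chr4:28740281-28894649, lay in a lost border stretch of 337.2 kb. With Tmem120a knockdown alone it was at 21.7%, and in preadipocytes at 0%. Pcdh17, at chr14:84843370-84936867, lay in a gap of 293.8 kb and was at 0% in both other lists. Some developmental transcription factor genes lay in smaller gaps. Zic4 lay in a gap of 39.2 kb in a LAD of 1.93 Mb. Sall1, a zinc finger repressor of organ development, lay in a gap of 36.3 kb in a LAD of 1.82 Mb. Both of these genes were at 100% in the preadipocyte list. In the Tmem120a knockdown list Zic4 was at 100% and Sall1 at 0%.

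The lost genes that lay far from a border in both lists were mostly 1 block of olfactory receptor genes. This ranking is not one of depth in the domain, since Dsel, also lost, lay 3615.1 kb from the adipocyte border. By the smaller of the distances to the adipocyte border and to the nearest knockdown LAD, the first was 4930555F03Rik on chromosome 8. It lay 263.4 kb from the nearest knockdown LAD, in a gap of 869.0 kb. The next 9 were Olfr651 to Olfr659, odorant receptor genes side by side on chromosome 7, which went from 100% to 0%. Their domain was shorter than 1 Mb. In the Tmem120a knockdown list Olfr653, Olfr654 and Olfr655 were at 0% and the other 6 at 100%, and all 9 were at 0% in the preadipocyte list.

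DNA was also gained, and most of it lay apart from the adipocyte LADs. The gained length was 148.9 Mb in 4212 stretches, against 185.5 Mb lost. Islands that touched no adipocyte LAD numbered 2236 and held 93.7 Mb (62.9%). Extensions of an adipocyte LAD numbered 1564 with 45.9 Mb, and bridges that joined adjacent adipocyte LADs numbered 412 with 9.35 Mb. Islands lay a median of 256.5 kb from the nearest adipocyte LAD, and 447 of them were at least 1 Mb away. Of the 1976 extensions and bridges, 282 (14.3%) with 5.24 Mb touched a long LAD, a share close to that of long LADs among all adipocyte LADs. The gained DNA had 7.94 gene starts per Mb and 42.8% GC, between the values of the kept long LADs and those outside both lists (12.6 per Mb and 44.0%). With LADs under 100 kb set aside the gained length was 70.3 Mb and the number of gained genes 585.

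The longest gained stretch, chr2:73839725-74354464, was an island of 514.7 kb without a whole or partial protein-coding gene. The second, of 408.5 kb on chromosome 1, covered part of Esrrg, which encodes an orphan nuclear receptor of oxidative metabolism. Esrrg went from 26.3% in adipocyte LADs to 95.8%. The third, of 339.4 kb, lay in the sodium-calcium exchanger gene Slc24a3, which went from 9.02% to 92.6%. A bridge of 291.3 kb contained the whole of Mme, which encodes the peptidase neprilysin and went from 0% to 100%. In the preadipocyte list Esrrg was at 91.3%, Slc24a3 at 100% and Mme at 0%.

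Some gained genes were neighbours in family clusters. Of the 10 gained genes farthest inside a knockdown LAD and from any adipocyte LAD, 6 were trace amine-associated receptors, Taar3, Taar4, Taar5, Taar6, Taar7a and Taar7b, which act as olfactory receptors for amines. They lay in a knockdown LAD of 246.2 kb on chromosome 10, and 13 of the 15 Taar genes there were gained. In the Tmem120a knockdown list all 6 were at 0%. In preadipocytes Taar7a and Taar7b were at 100%, and Taar3, Taar4, Taar5 and Taar6 at 0%. The remaining 4 were Gm5160 on chromosome 18 and the predicted genes Gm14181, Gm14188 and Gm14194, which lie among keratin-associated genes of chromosome 11. With Tmem120a knockdown alone Gm5160 was at 0% and the predicted genes of chromosome 11 were at 100%. In that chromosome 11 block 14 of 25 keratin or keratin-associated genes were gained and 1 was lost. Among the keratin genes of chromosome 15, 5 of 24 were gained, Krt1 with them. All 19 Krtap genes of the chromosome 16 cluster stayed in LADs. In the Serpina cluster of chromosome 12, 11 of 22 protease inhibitor genes were gained and 7 were kept. These clusters were picked out after their values were seen.

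Gene families were then counted against the shares over all protein-coding genes, 11.4% lost and 6.74% gained. No test was made on these counts. Fat cell genes lay outside LADs in both lists almost without exception. None of 23 adipogenic transcription factor genes and none of 41 genes of lipid storage and adipokines lay in adipocyte LADs, and of these 1 was gained. It was Rbp4, which encodes the retinol carrier of plasma, and it went from 0% to 100%, with 100% in the Tmem120a knockdown and preadipocyte lists. Among the transcription factor genes Prdm16 went from 0% to 41.7%, under the bound. Of the 23 genes 22 had no overlap with the adipocyte or the knockdown list, and of the 41 genes 39 had none. Muscle genes were of interest because muscle is another fate of mesenchymal precursors. Of 19 sarcomere and myogenic genes in adipocyte LADs 5 (26.3%) were lost, and of 56 outside 3 (5.36%) were gained. The list holds genes that the study picked on these samples and is not independent evidence. Without them 3 of 15 were lost.

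The lost muscle genes were of different kinds. Myh4, a fast myosin heavy chain gene, went from 100% to 0% in a lost stretch of 51.4 kb, and its neighbour Myh2 went from 92.6% to 44.8%. Trdn, which encodes triadin of the calcium release complex, went from 100% to 15.3% in a long LAD. Myom2, a gene of the M-band, went from 61.6% to 12.5%. Unc13c, a gene of vesicle priming that the study places with muscle genes, went from 100% to 39.2%. Of 16 genes the study discusses 4 lay in adipocyte LADs and 2 of them, Myh2 and Unc13c, were lost, while none of the 12 outside counted as gained. Some of the 12 nevertheless went from 0% to partial cover by knockdown LADs. These were Ak4 (42.6%), Fh1 (31.9%), Sema3c (31.4%), Parm1 (24.3%) and Jazf1 (23.6%). Cpe went from 0.278% to 0%, and 6 genes had no overlap with either list. The study chose all 16 genes on the same samples. In the Tmem120a knockdown list Myh4 was at 100% and Myh2 at 0%. Fh1 was at 100% in that list, Parm1 at 27.5%, Jazf1 at 20.2%, and Ak4 and Sema3c at 0%. In preadipocytes Fh1 was at 100% too. From DamID traces, a measure other than gene cover, the study describes a stronger LAD change at Fh1 with both proteins depleted than with Tmem120a alone. The gained muscle genes included Myl1 (0% to 100%) and Mybpc1 (0% to 71.3%). Dmd, a gene of 2257.3 kb, stayed at 95.1% although it was met by 8 knockdown LADs, and Nebl, Myf5 and Myf6 stayed at 100%.

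Chemoreceptor genes were the largest group in LADs and were mostly kept. Of 1003 olfactory receptor genes in adipocyte LADs 44 (4.39%) were lost, and of the 110 outside 39 (35.5%) were gained. Of 312 vomeronasal receptor genes 8 (2.56%) were lost, and none of 16 outside was gained. These families hold near-identical copies, and how reads shared between copies were treated is not given in the sources used here. Adhesion and synaptic genes were lost at shares nearer to that of all genes. Of 35 protocadherin and cadherin genes in adipocyte LADs 5 (14.3%) were lost, and 7 of 24 outside were gained, 5 of the latter being neighbours in the Pcdhb cluster. The lost ones were Cdh18, Pcdh17, Pcdh9 (93.1% to 2.63%), Pcdh20 (100% to 12.2%) and Pcdhb13 (100% to 0%). Pcdh10 stayed at 100% within the most fragmented of the long LADs, in a piece of 1973.4 kb. Of 28 glutamate and GABA receptor genes 4 (14.3%) were lost, and none of 19 outside was gained. Gria2, which encodes an AMPA receptor subunit, went from 100% to 0% in a lost stretch of 588.1 kb. Grik2 went from 94.7% to 0%, while Gabrp (100% to 48.7%) and Grik3 (51.0% to 47.8%) ended just under the 50% bound.

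The smaller families gave counts of a few genes each. Of 28 potassium channel genes in LADs 2 were lost, and 9 of 68 outside were gained. Of 52 zinc finger genes 10 (19.2%) were lost, and 31 of 344 outside (9.01%) were gained. Of 54 cytochrome P450 genes 6 (11.1%) were lost, and 4 of 44 outside (9.09%) were gained. Among interleukin and interferon genes 5 of 84 outside were gained and 5 of 22 in LADs were lost, one of them Il1rapl1, which encodes no cytokine receptor despite its name, and another Il23r (100% to 3.29%). Of 48 chemokine and chemokine receptor genes outside, 6 were gained and of 9 in LADs 1 was lost, the gained ones including Ccr1 and Ccr1l1 in 1 neighbourhood of chromosome 9. Both semaphorin genes in LADs, Sema3d (83.1% to 18.0%) and Sema3e (96.2% to 38.2%), were lost. They encode secreted guidance proteins. Of 27 semaphorin and plexin genes outside, Plxna4 (7.95% to 63.6%) was gained. Of 5 collagen genes in LADs Col11a1 (100% to 43.2%) and Col9a1 (100% to 19.0%) were lost, and 2 of 39 outside were gained. Of 26 serpin genes 4 (15.4%) were lost and 12 of 34 outside (35.3%) were gained, while of 20 keratin and keratin-associated genes 1 was lost and 19 of 77 outside (24.7%) were gained. Most of these gains were of neighbours counted singly. The Serpina cluster held 11 of the gained genes, and the keratin blocks of chromosomes 11 and 15 held 14 and 5.

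**Figure D5:**
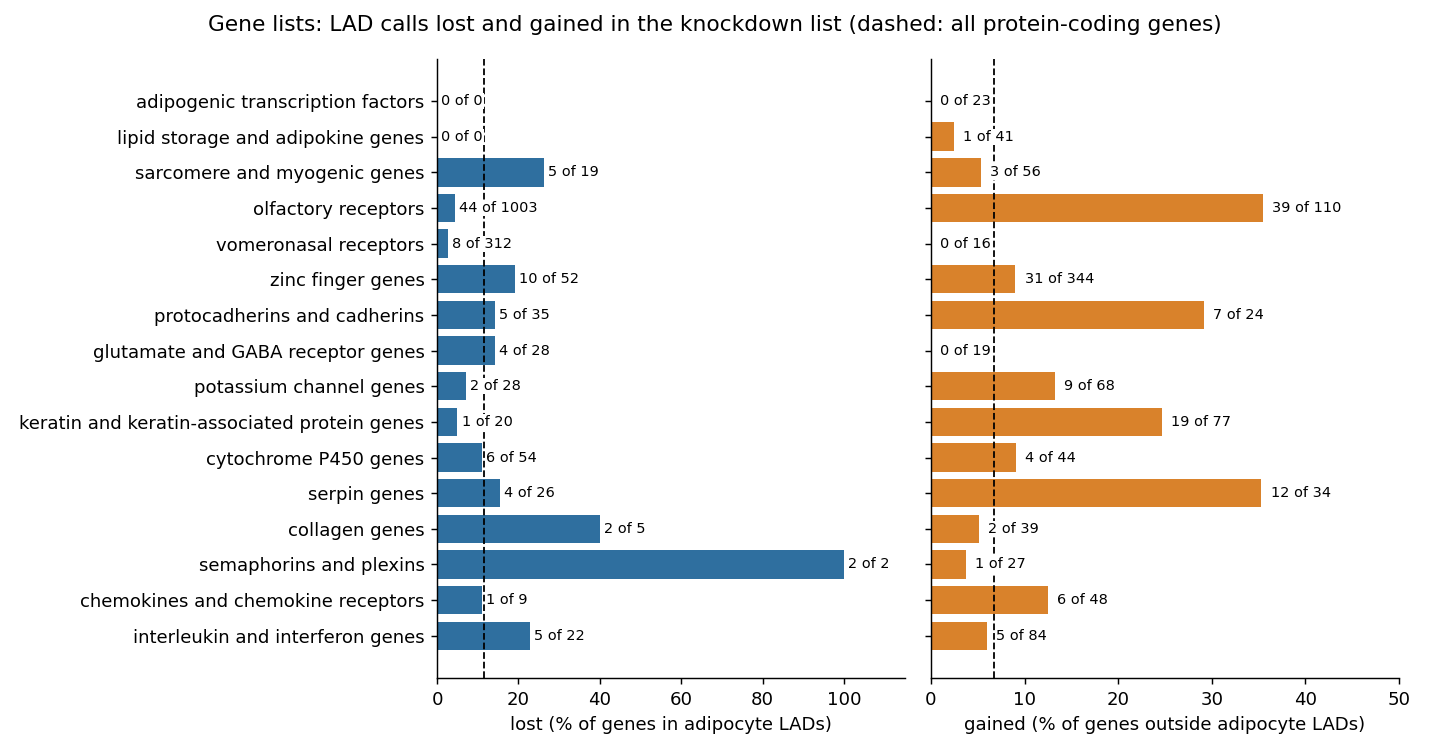
Percentage of genes in adipocyte LADs that were lost (left) and of genes outside adipocyte LADs that were gained (right) in the knockdown list for 16 gene lists, with counts beside the bars and the shares over all protein-coding genes (11.4% and 6.74%) as dashed lines. For loss 6 lists with genes in adipocyte LADs lay left of the line, vomeronasal and olfactory receptors farthest, and for gain 8 lists lay right of the line, olfactory receptor and serpin genes farthest. Neighbouring genes of a cluster were counted singly.

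MicroRNA genes were read in the same way. Of 529 miRNA genes of the annotation in adipocyte LADs 79 (14.9%) were lost, and of 1048 outside 60 (5.73%) were gained. Among loci with a Mir name 144 lay in adipocyte LADs and 29 of them were lost, 15 on the X chromosome and 12 inside long LADs. Of the 15 miRNA loci of the study in adipocyte LADs, Mir181a-1, Mir201 and Mir216a were lost. The other 12 were copies of Mir467 at 1 locus of chromosome 2 and stayed at 100%. Of the 3 outside, Mir340 was gained and Mir181a-2 and Mir710 stayed at 0%. The study chose these loci on the same samples. The remaining loci named here were chosen after their values were seen. The mature sequences below are those of RefSeq (GRCm38.p6) and are shown because a miRNA recognizes its targets by the seed, bases 2 to 8, in capitals.
miR-206-3p: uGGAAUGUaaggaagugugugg
miR-133b-3p: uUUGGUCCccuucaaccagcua
miR-137-3p: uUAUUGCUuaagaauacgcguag
miR-216a-5p: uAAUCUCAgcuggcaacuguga
miR-216b-5p: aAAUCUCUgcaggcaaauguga
miR-217-5p: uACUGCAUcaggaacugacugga
miR-201-5p: uACUCAGUaaggcauuguucuu
miR-106a-5p: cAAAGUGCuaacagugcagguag
miR-20b-5p: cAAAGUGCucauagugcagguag
miR-18b-5p: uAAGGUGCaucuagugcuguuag
miR-19b-3p: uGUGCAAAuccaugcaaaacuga
miR-92a-3p: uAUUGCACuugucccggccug
miR-363-3p: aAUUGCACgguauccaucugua
miR-181a-5p: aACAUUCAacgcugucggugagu
miR-181b-5p: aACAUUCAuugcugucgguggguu
miR-340-5p: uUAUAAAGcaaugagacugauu

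Mir206 and Mir133b, which are miRNAs of skeletal muscle, shared a gap of 20.6 kb at chr1:20656374-20676972 in a LAD of 3.13 Mb. The borders of that gap are among the sequences given above. Mir137, a brain miRNA, lay in a gap of 33.5 kb in a LAD of 1.81 Mb on chromosome 3. Mir216a, Mir216b and Mir217, which form a pancreatic cluster with different seeds, lay in a border stretch of 123.7 kb lost from a LAD of 2.18 Mb on chromosome 11. Mir201 lay in a gap of 79.7 kb in a LAD of 3.67 Mb on the X chromosome. None of these stretches held a protein-coding gene.

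Further groups were lost outside the long LADs. The X-chromosomal cluster of Mir106a, Mir18b, Mir20b, Mir19b-2, Mir92-2 and Mir363, a paralog of the growth-promoting miR-17 cluster, lay in a gap of 17.4 kb in a LAD of 381.8 kb. In that cluster miR-106a and miR-20b share a seed, as do miR-92a and miR-363. The pair Mir181a-1 and Mir181b-1, again with 1 seed, lay in an adipocyte LAD of 54.4 kb that was lacking from the knockdown list. Mir340, inside the gene Rnf130, was gained in a stretch of 46.2 kb and was at 100% in the Tmem120a knockdown and preadipocyte lists. The LAD lists give no measure of miRNA levels.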

How the data were processed

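LaminB1-DamID of 3T3-L1 adipocytes was analysed in 1 Dam and 1 LaminB1-Dam library per condition. The authors aligned reads with BWA (mm9, per the submitters' processing notes), formed the log2 ratio of LaminB1-Dam to Dam over DpnI fragments and segmented it with DNAcopy. The LAD lists used here hold positions without values, so read depth and its precision are unknown from them. Lists were matched to conditions by their abbreviations. The 2 files of differential regions were not used here.

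Starts were read as counting from 0 and are given from 1. An overlap of 1 bp placed a LAD inside another, and 2 overlapping LADs made it broken. Interval arithmetic used Python 3.11.15 with numpy 2.4.6 and scipy 1.17.1, was checked on simulated intervals and against bedtools 2.31.1, and figures used matplotlib 3.10.9. Of the annotation, 22367 protein-coding and 1577 miRNA genes on 21 chromosomes were used.

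Regions and genes were named by rule: the 5 longest LADs, the 5 with the most pieces, the 5 with the largest share lost, the 3 longest intact ones, the 5 longest lost and gained stretches, the 10 lost and 10 gained genes farthest from a border, members of the gene lists and loci the study discusses. Exceptions are stated, and a few items that the rule names are not reported here. The members and lists were chosen with earlier results of these data known. Whether both shRNA lines came from 1 clone is not given in the sources used here.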

Additional observations from a re-analysis of the deposited data

How the results depend on the processing

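The values rest on 1 list per condition, hold no error between cultures and were recomputed with 1 setting changed at a time. Counts and lengths were taken as moved beyond 1.5-fold, and the share broken outside its Wilson interval. Of 41 alternative values 30 stayed within these bounds and 11 moved. The share of long LADs broken was 86.6% with only LADs of at least 100 kb, 79.7% with gaps under 20 kb closed, 50.1% with gaps under 50 kb closed, 86.0% for long LADs of at least 500 kb and 98.7% for those of at least 2 Mb. Those 2 length bounds gave 613 and 152 long LADs in place of 350. With only LADs of at least 100 kb, 18.0% of the long LAD length was lost, 70.3 Mb was gained and 585 genes were gained. Any overlap gave 1869 gained genes. Leaving out the X chromosome moved none of the values. The length lost, between 141.7 and 247.4 Mb, and the genes lost, between 443 and 802, stayed within the bound. No paired analysis was possible because each condition has 1 list and no result comes from a test. Without scores, the depth limit of each gap cannot be given.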

Other observations

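Some genes gained in knockdown LADs were long genes that adipocyte LADs covered only in part. They were chosen after their values were seen. Rora, an orphan nuclear receptor gene of 734.5 kb, went from 6.46% to 71.3% and was met by 4 knockdown LADs. Pde7b, a cAMP phosphodiesterase gene of 327.1 kb, went from 5.06% to 97.4% in 1 knockdown LAD of 319.0 kb. Thrb, the thyroid hormone receptor beta gene, went from 37.2% in 3 adipocyte LADs to 63.7% in 4 knockdown LADs. In the preadipocyte list Rora was at 72.0%, Pde7b at 94.3% and Thrb at 24.3%.

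Further genes in long LADs were cut and kept part of their body in knockdown LADs. Edil3, a gene of an extracellular matrix integrin ligand, went from 100% to 49.8% in 3 knockdown LADs of which the largest overlap was 137.7 kb. Pdgfd, the gene of a platelet-derived growth factor, went from 100% to 38.1% in 2. In the Tmem120a knockdown list these genes were at 63.8% and 20.2%.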
